A study of Caenorhabditis elegans with 6 samples.

Results

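Major sperm protein genes (msp), the MSP domain genes msd and the small sperm families ssp, sss and nspd were compared between wild type and flcn-1 mutant Caenorhabditis elegans, array by array. Members were the probes whose sequence name or accession maps to a gene symbol of one of these 5 families followed by a number. The rule found 54 of the 19815 genes with a named probe, through 78 of the 43603 probes on the array. These were 41 probes for 27 msp genes, 4 probes for 4 msd genes, 12 probes for 10 nspd genes, 18 probes for 11 ssp genes and 3 probes for 2 sss genes. The gene table lists 66 genes of these families, and for the other 12, msp-10, msp-53, msp-57, msp-58, msp-65, msp-71, msp-77, msp-113, nspd-11, nspd-12, ssp-9 and ssp-28, no probe was matched. Of the 54 genes, 53 were well above background on all 6 arrays and were tested. The exception was nspd-8, whose probe was below that limit on every array.

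Both groups were whole young adults before reproduction, raised on agar with OP50 bacteria after egg preparation and then picked. The control group is titled WTN2 and labelled wild type. The other group, RB1035, carries a mutant allele of flcn-1 and had been backcrossed 8 times to WTN2. The labels name neither the allele nor the sex of the animals, and no other allele or agent is given for either group. The gene flcn-1 encodes the worm counterpart of folliculin, a human tumour suppressor. Each strain had 3 arrays, described as biological triplicates, with 1 RNA sample labelled with Cy3 on each array.

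In nematodes the major sperm protein is the abundant small protein whose filaments move the crawling, amoeboid sperm. It is packed into fibrous bodies in spermatocytes, and sperm also release it as a signal that triggers oocyte maturation and contraction of the gonadal sheath. It is encoded by many nearly identical genes that are transcribed in spermatocytes. C. elegans hermaphrodites make their sperm at the end of larval life and then switch to oocytes, so young adults keep a fixed store of sperm. The ssp and sss names stand for sperm-specific families, classes P and S, and nspd stands for nematode-specific peptide family, group D. In whole animals, fewer cells of a type and less RNA per cell cannot be told apart.

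The arrays lay on 2 slides, each scanned separately. Slide 1 held WTN2 replicate 1 and RB1035 replicate 1, and slide 2 held the other 4 arrays. Each array showed 68.1% to 73.1% of its probes well above background, and no spot was saturated. Copies of the same probe varied by 8.19% to 10.9% on the WTN2 arrays and on RB1035 replicate 1, and by 22.4% and 20.9% on RB1035 replicates 2 and 3. Levels are log2 processed signals minus the array's 75th percentile, and differences are RB1035 minus WTN2. The targeted gene itself, flcn-1, had levels of 0.73, 0.16 and 0.20 in WTN2 and -0.11, 0.37 and 0.49 in RB1035. The groups overlapped, with a difference of -0.11 ± 0.30 (SE, n = 3 per strain) and a limma adjusted p of 0.901. The labels do not say where the lesion lies, so whether this probe falls in it, and whether its signal checks the strain, is not known here.

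The families were among the brightest features of both strains. Ranked among all probes of an array, every msp probe stood at or above the 90.4th percentile on every array, and the median msp probe stood between the 98.3rd and the 98.8th. The median probe of msd stood between the 95.6th and 97.4th percentiles, that of nspd between the 93.9th and 97.9th, and that of ssp between the 88.8th and 93.0th. Of the 1583 probes above the 95th percentile on all 6 arrays, 46 belonged to these families, and 36 of those were msp probes. These ranks describe probes and not transcript numbers, since brightness also depends on the probe. The probes' sequences were not used here, so how far nearly identical msp copies share signal was not tested.

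Lower values in RB1035 were found across 4 of the families, but no member passed the test. Of the 53 tested genes, 46 had a difference below 0 and 7 had one above 0, whereas 49.7% of all 19829 features lay below 0. The median difference was -0.43 over the 53 genes and 0.00 over all features. With limma and Benjamini-Hochberg adjustment over all features, 0 members were called and their smallest adjusted p was 0.650, against 0.101% of all features called in either direction and 0.0807% called as lower. At an unadjusted p under 0.05 there were 7 members, all lower, against 7.23% of all features in either direction and 4.34% in the lower direction. With 1 array left out that count was 2, 6 and 2 without WTN2 replicates 1, 2 and 3 and 8, 1 and 4 without RB1035 replicates 1, 2 and 3, and between 40 and 50 members were below 0. In 13 members every RB1035 array lay below every WTN2 array, against 6.74% of all features, and in 0 members did the arrays separate the other way, against 5.22%. The median 95% confidence interval of a member reached 0.73 to either side of its difference, so 3 arrays per strain leave single differences of this size unresolved.

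**Figure D1:**
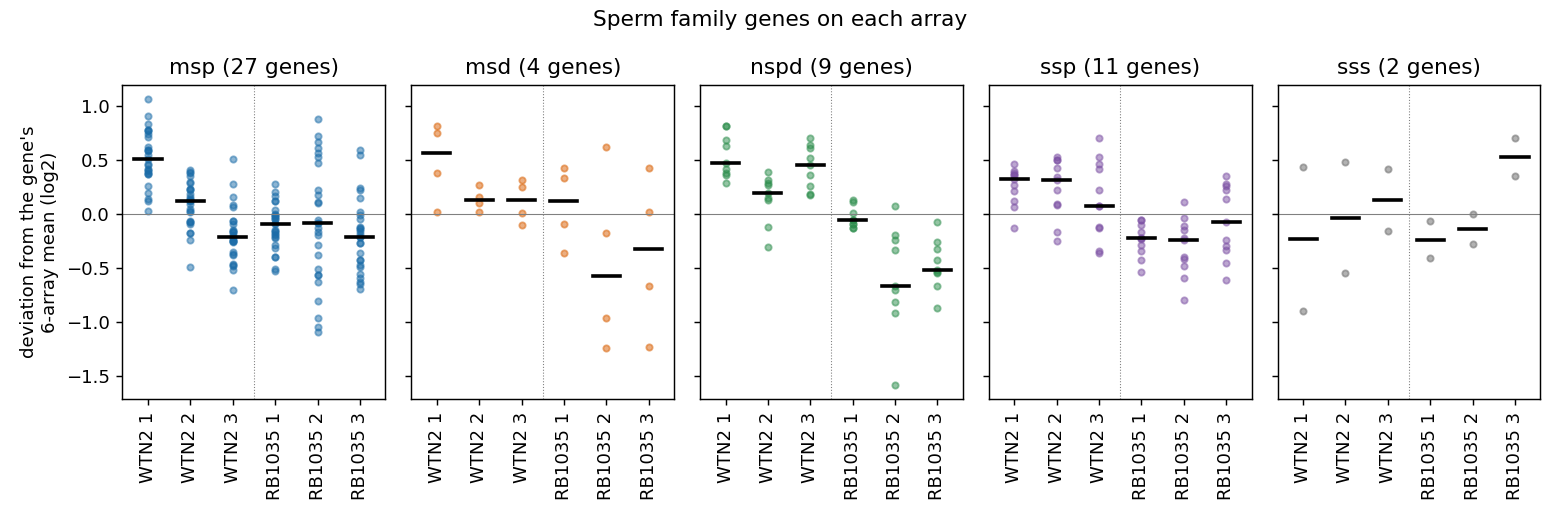
Deviation of each tested gene from its own 6-array mean (vertical axis, log2) on the 3 WTN2 and 3 RB1035 arrays, with 1 panel per family. Points are genes and black bars are medians; the nspd medians lie at 0.19 or above in WTN2 and at -0.06 or below in RB1035, while the msp genes spread most on RB1035 replicate 2.

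The nspd family, which encodes short peptides found only in nematodes, had the lowest median of the 5 families, -0.76. All 9 tested nspd genes were below 0, from -1.17 to -0.44. In 6 of them every RB1035 array lay below every WTN2 array, against 6.74% of all features. An unadjusted limma p under 0.05 was found for 5 of the nspd genes, against 4.34% of all features in the lower direction. The family's median deviation was 0.47, 0.19 and 0.45 on the WTN2 arrays and -0.06, -0.67 and -0.52 on the RB1035 arrays. All RB1035 medians thus lay below all WTN2 medians, with RB1035 replicate 1 the nearest to wild type.

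The level of nspd-1 was 4.98, 4.48 and 4.81 in WTN2 and 4.08, 2.58 and 4.09 in RB1035. RB1035 replicate 2 stood far below the other RB1035 arrays, and the strains did not overlap. The difference was -1.17 ± 0.44 (SE, n = 3 per strain), or 2.25-fold lower, with a limma p of 0.026 before and 0.650 after adjustment.

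For nspd-3 the levels were 4.61, 4.32 and 4.29 in WTN2 and 3.94, 3.01 and 3.41 in RB1035, a difference of -0.95 ± 0.31 with the smallest unadjusted limma p of any member, 0.015. Levels of nspd-5 were 4.74, 4.55 and 4.72 against 4.21, 3.45 and 3.94, a difference of -0.80 ± 0.29, and its second probe gave -0.78. Levels of nspd-4 were 5.10, 4.73 and 4.72 against 4.58, 3.77 and 3.93, a difference of -0.76 ± 0.31. In each of these genes RB1035 replicate 1 was the highest RB1035 array and still lay below the lowest WTN2 array.

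The brightest nspd probe, that of nspd-2, had levels of 5.85, 5.58 and 5.60 in WTN2 and 5.30, 5.09 and 5.17 in RB1035, a difference of -0.49 ± 0.25. The strains did not overlap, and the RB1035 arrays lay close together. Levels of nspd-6 were 4.66, 4.56 and 4.56 against 4.32, 4.44 and 3.71, again without overlap, a difference of -0.44 ± 0.29. The dimmest tested probe of the family, that of nspd-9, read 1.37, 0.25 and 1.25 against 0.42, 0.35 and -0.32, and here WTN2 replicate 2 lay below 2 of the RB1035 arrays. The remaining tested genes, nspd-7 and nspd-10, had differences of -0.72 and -0.51 with overlapping arrays. The untested nspd-8 read between -9.40 and -6.52, and no fold is given for it.

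All 11 ssp genes, several of which encode small proteins with an MSP domain, were below 0, from -0.72 to -0.11 with a median of -0.39. In ssp-32, ssp-36 and ssp-35, 27.3% of the family, every RB1035 array lay below every WTN2 array, against 6.74% of all features. The family's median deviation was 0.32, 0.32 and 0.07 on the WTN2 arrays and -0.23, -0.24 and -0.07 on the RB1035 arrays, so the RB1035 medians again lay below all WTN2 medians, but by a narrower margin than for nspd.

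The ssp gene with the lowest signal, ssp-32, had levels on its brighter probe of -0.25, -0.12 and 0.06 in WTN2 and -0.70, -0.71 and -1.08 in RB1035. Its difference was -0.72 ± 0.27 with a limma p of 0.025 before and 0.650 after adjustment, and its other probe, the dimmest of the family, gave -1.51. For ssp-36 the levels were 0.52, 0.34 and 0.71 against 0.15, -0.14 and -0.04, a difference of -0.54 ± 0.26. Every RB1035 array lay below the WTN2 arrays in both genes.

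In ssp-33 the levels were 3.62, 3.00 and 3.87 in WTN2 and 3.102, 2.57 and 2.82 in RB1035, a difference of -0.66 ± 0.32, with RB1035 replicate 1 above WTN2 replicate 2. The brightest ssp probe, that of ssp-11, read 5.58, 5.76 and 5.34 against 4.91, 4.47 and 5.52, a difference of -0.59 ± 0.33. RB1035 replicate 3 lay inside the wild type range. For ssp-10 the levels were 5.35, 5.26 and 4.81 against 4.72, 4.83 and 4.70, a difference of -0.39 ± 0.27, and RB1035 replicate 2 stood just above the lowest WTN2 array.

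The 4 msd genes, which encode proteins with an MSP domain, were all below 0 with a median of -0.48, and none had separated arrays. Levels of msd-4 were 4.51, 3.80 and 4.01 in WTN2 and 4.12, 2.73 and 3.03 in RB1035, a difference of -0.81 ± 0.41 with a limma p of 0.080 before adjustment. Levels of msd-3 were 5.41, 4.82 and 4.67 against 4.57, 3.42 and 5.09, a difference of -0.60 ± 0.45. In msd-4 the low arrays were RB1035 replicates 2 and 3, and in msd-3 only RB1035 replicate 2 was far below the rest.

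For msd-2 the levels were 4.63, 4.88 and 4.86 in WTN2 and 4.24, 4.43 and 4.63 in RB1035, a difference of -0.35 ± 0.26. Levels of msd-1 were 4.21, 3.84 and 3.72 against 4.15, 4.44 and 2.59, a difference of -0.19 ± 0.48. RB1035 replicate 3 alone put the mean of msd-1 below wild type, and without that array its difference was 0.37. With 1 array deciding its sign, msd-1 has no settled direction.

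The msp genes, which encode the major sperm protein itself, had a median nearer to 0 than nspd, msd and ssp, a difference between families that was not tested. Of 27 tested genes, 22 were below 0 and 5 above 0, from -0.61 to 0.20, with a median of -0.25. An unadjusted limma p under 0.05 was found for 1 of them, lower in RB1035, against 4.34% of all features in that direction. The msp median deviation was 0.51, 0.12 and -0.22 on the WTN2 arrays and -0.09, -0.09 and -0.22 on the RB1035 arrays. WTN2 replicate 3 thus read like the mutant arrays, and WTN2 replicate 1 read highest. The msp median moved to -0.09 without WTN2 replicate 1 and to -0.46 without WTN2 replicate 3.

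In 4 msp genes, 14.8% of the 27, every RB1035 array lay below every WTN2 array, against 6.74% of all features. The level of msp-142, the dimmest msp probe, was 3.18, 3.18 and 2.96 in WTN2 and 2.52, 2.61 and 2.37 in RB1035, a difference of -0.61 ± 0.25 with a limma p of 0.041 before and 0.650 after adjustment. Levels of msp-32 were 4.91, 4.95 and 4.63 against 4.39, 3.97 and 4.42, a difference of -0.57 ± 0.27. In msp-142 the arrays of each strain lay close together, and in msp-32 RB1035 replicate 2 was the lowest.

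For msp-64 the levels were 5.15, 5.40 and 5.29 in WTN2 and 4.51, 4.88 and 4.86 in RB1035, a difference of -0.54 ± 0.26. For msp-81 they were 6.40, 5.91 and 6.49 against 5.79, 5.82 and 5.51, a difference of -0.56 ± 0.28, with only a narrow gap between WTN2 replicate 2 and RB1035 replicate 2. These 4 differences span a narrow range, and each corresponds to between 1.45-fold and 1.53-fold lower in RB1035.

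The largest positive differences among the 27 msp genes were those of msp-51 and msp-74, whose highest RB1035 array was replicate 2. Levels of msp-51 were 6.63, 6.05 and 5.70 in WTN2 and 5.91, 6.70 and 6.37 in RB1035, a difference of 0.20 ± 0.34. Levels of msp-74 were 5.95, 5.69 and 5.38 against 5.54, 6.36 and 5.63, a difference of 0.17 ± 0.32. Without RB1035 replicate 2 they were 0.013 and -0.087.

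Other bright msp probes belong to msp-52, annotated as a pseudogene, and msp-78. Levels of msp-52 were 6.60, 6.12 and 5.61 in WTN2 and 5.90, 6.66 and 5.66 in RB1035, a difference of -0.04 ± 0.38. Levels of msp-78 were 6.58, 6.11 and 5.61 against 5.97, 5.91 and 5.78, a difference of -0.21 ± 0.31. In both genes WTN2 replicate 1 read high and WTN2 replicate 3 low, and that spread within the wild type exceeded the difference between the strains.

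The 2 sss genes had differences close to 0 with wide errors. The level of sss-1 was 4.58, 3.59 and 3.98 in WTN2 and 4.07, 4.14 and 4.49 in RB1035, a difference of 0.19 ± 0.33 with a limma adjusted p of 0.842. That of sss-2, annotated as a pseudogene, was 2.32, 3.70 and 3.64 against 2.81, 2.94 and 3.92, a difference of 0.00 ± 0.46. The 95% confidence intervals ran from -0.56 to 0.93 and from -1.06 to 1.06, and the sign of both genes turned under other processing.

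**Figure D2:**
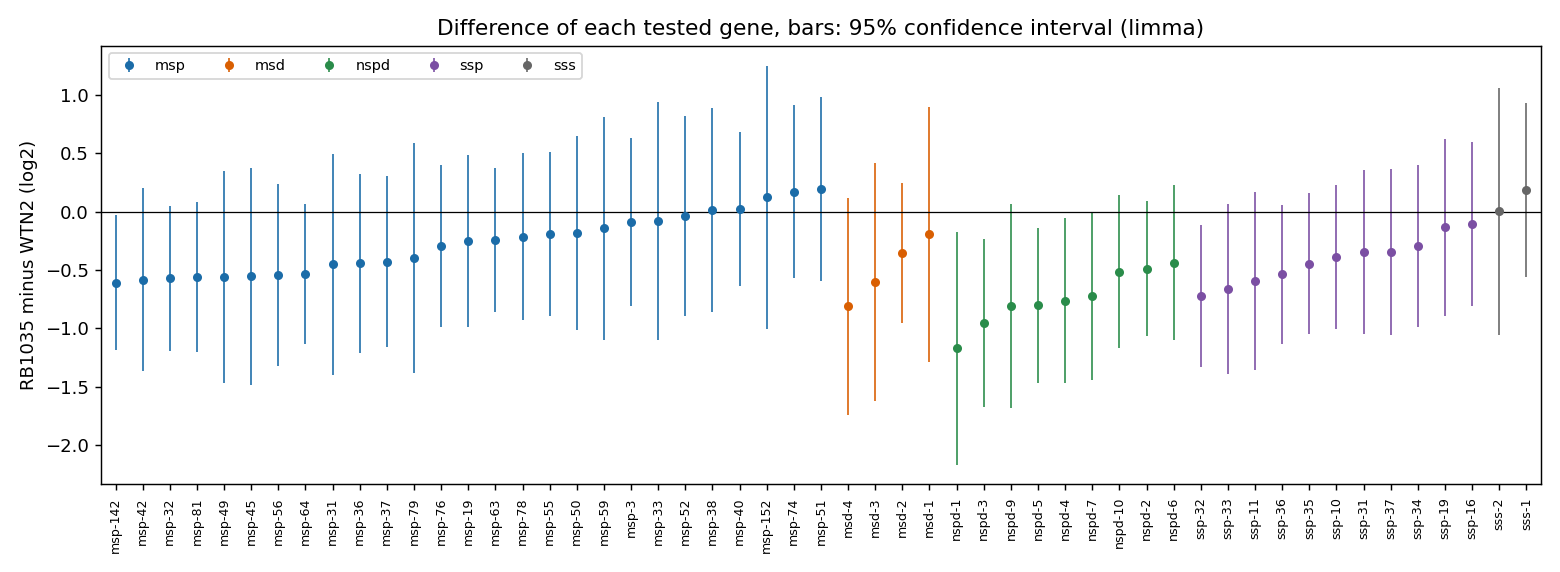
Difference of each of the 53 tested genes, RB1035 minus WTN2 (vertical axis, log2), by family, with limma's 95% confidence interval as bars. The points run from -1.17 (nspd-1) to 0.20 (msp-51), and the intervals of most genes cross 0.

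Each slide held both strains, so the comparison could be repeated within slides. On slide 1, with 1 array per strain, 52 of the 53 genes were lower in RB1035, with a median of -0.55 against -0.03 for all features. On slide 2, with 2 arrays per strain, 41 of 53 were lower, with a median of -0.34 against 0.00. In all, 40 members were lower on both slides, against 26.6% of all features. The families differed in this respect. The 9 nspd genes were lower on both slides, with medians of -0.53 and -0.88, and the ssp medians were -0.52 and -0.27. All 27 msp genes were lower on slide 1, from -1.05 to -0.39, whereas on slide 2 only 17 were, from -0.68 to 0.66, with medians of -0.62 and -0.14.

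Other bright features also read lower in RB1035 on slide 1. The 173 other features with levels inside the interquartile range of the msp genes had a median of -0.38 on slide 1 and 0.13 on slide 2, and 52.6% of them were below 0 over all arrays. The 638 other features in the range of the nspd genes had medians of -0.17 and 0.06, and 49.8% were below 0. Over all arrays the medians of these comparison features were -0.02 and 0.00, beside -0.25 for msp and -0.76 for nspd.

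**Figure D3:**
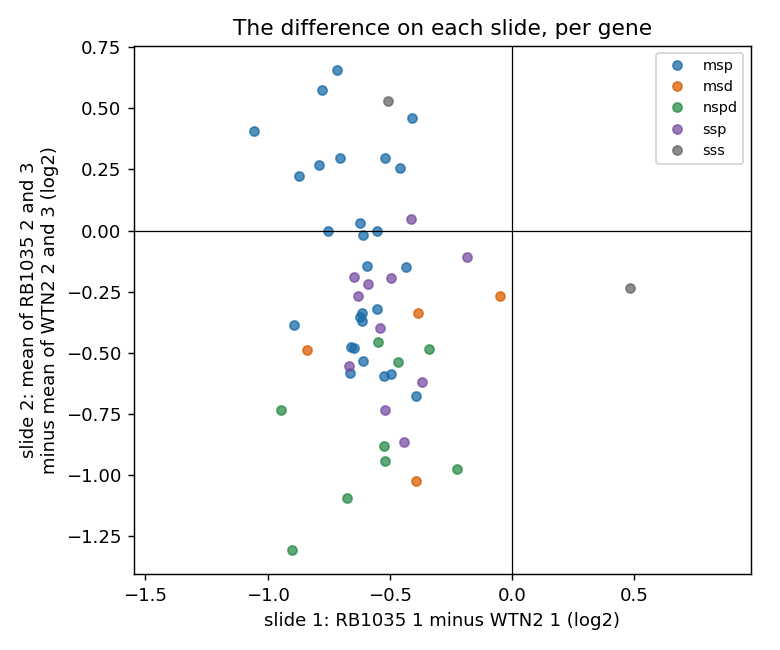
Difference of each tested gene within slide 1 (horizontal axis, log2, 1 array per strain) and within slide 2 (vertical axis, log2, 2 arrays per strain). All nspd points lie below 0 on both axes, while msp points lie left of 0 on slide 1 and between -0.68 and 0.66 on slide 2.

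The spread of the msp genes on RB1035 replicate 2 went with the place of the probes on the array. Per the file headers, that array is the one on which no fitted multiplicative surface was divided out. The SD of the 27 msp deviations was 0.56 there and between 0.21 and 0.34 on the other arrays. For each probe, the median deviation of the 200 nearest other probes on the array was taken as the local signal. Its SD over 27552 probes was 0.308 on RB1035 replicate 2 and 0.0764 to 0.142 on the others. On RB1035 replicate 2 the correlation between a gene's deviation and its local signal was 0.87 over the 27 msp genes and 0.76 over the 53 members, and 0.58 over all those probes. These points share an array and are given as a description.

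The 10 msp genes whose probes lay where the local signal was below 0 all deviated downwards on RB1035 replicate 2, with a median of -0.60. The 17 msp genes where it was above 0 had a median of 0.17. Over all arrays the strain difference was -0.45 in the former and -0.14 in the latter. After the local signal was subtracted on every array, an adjustment chosen after seeing the data, these medians were -0.23 and -0.24.

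With that adjustment the msp median was -0.24, and the SD between msp genes narrowed from 0.26 to 0.16. Of the 53 members, 51 were then below 0, against 51.3% of all features, the exceptions being msp-152 at 0.02 and ssp-19 at 0.07. The nspd median was again -0.76, with 7 of 9 genes at an unadjusted p under 0.05. Over all members 12 reached that level, against 8.19% of all features. Of the 53 members 0 were called, against 0.116% of all features, with a smallest limma adjusted p of 0.601. The gap between msp-51 and msp-32, at 0.20 and -0.57 before, became smaller, at -0.058 and -0.42.

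**Figure D4:**
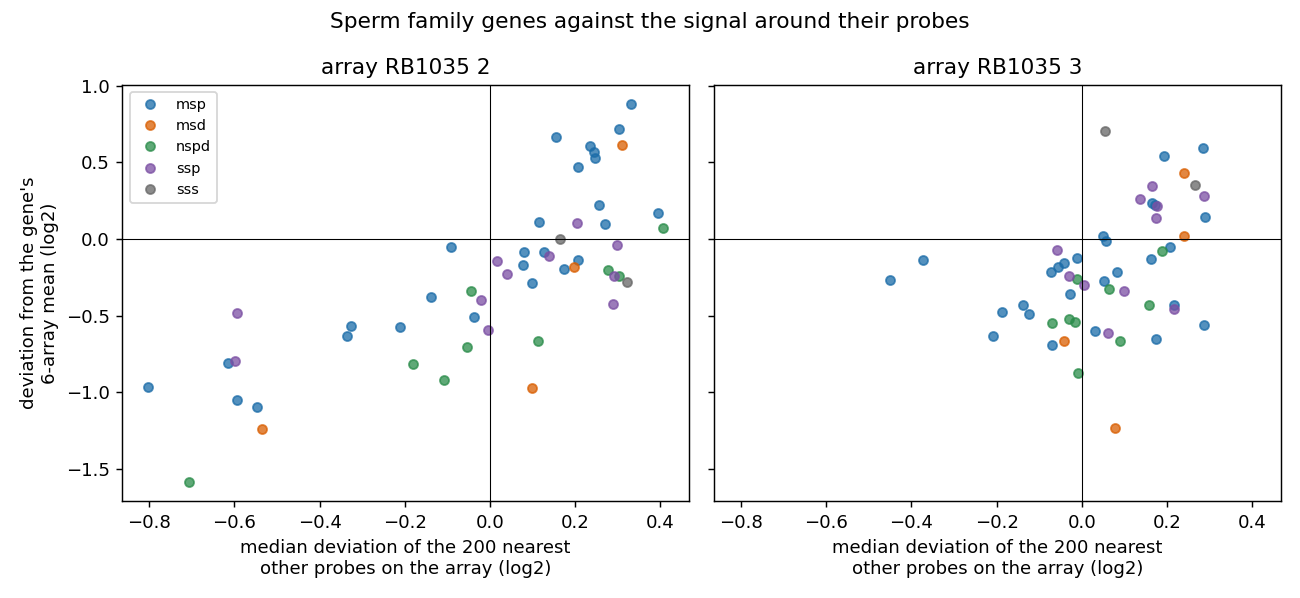
Deviation of each tested gene from its 6-array mean (vertical axis, log2) against the median deviation of the 200 nearest other probes on the same array (horizontal axis, log2), on RB1035 replicates 2 and 3. On RB1035 replicate 2 the msp points rise together along the local signal (r = 0.87 over 27 genes), and on RB1035 replicate 3 less so (r = 0.40).

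Several probes measured 15 of the genes and give a further view of the spread within a gene. In 11 of them all probes were below 0, and in 4, msp-31, msp-40, msp-50 and sss-1, the probes differed in sign. The widest range was that of msp-31, whose 5 probes gave differences from -0.69 to 0.12, while the 2 probes of nspd-5 gave -0.80 and -0.78. The median range within a gene was 0.22, and it was 0.16 after the local signal was subtracted, which narrowed the range in 11 of the 15 genes.

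The msp genes lie in few places of the genome. All 27 tested msp genes are on chromosomes II and IV, in the gene order of assembly WBcel235. On chromosome II, 14 msp genes and 2 nspd genes lie between msp-3 and msp-64, and the msp median there was -0.35 with 11 of 14 below 0. On chromosome IV the 5 msp genes between ssp-11 and msp-59 had a median of -0.14, and the 8 between msp-76 and ssp-34 had a median of -0.41. After the local signal on the array was subtracted the 3 medians were -0.29, -0.23 and -0.24. The nspd genes, in contrast, are spread over chromosomes I, II, III and IV, and all tested members were below 0 on each of them.

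Other genes of sperm formation and function lay on both sides of 0, more of them below. A list of 27 genes held regulators of msp transcription, fibrous body and motility genes, and other sperm genes such as spe-9, spe-11 and spe-38. It had 22 tested members, of which 15 were below 0 and 7 above 0, against 49.7% of all features below 0. Their median was -0.48, and 0 were called, against 0.101% of all features. At an unadjusted limma p under 0.05 there were 6 of the 22, against 7.23% of all features in either direction, and of the 6 only spe-5 was higher. No probe was matched for spe-7, mfp-1, mfp-2, mfp-3 and mpop-1. The medians were -0.06 on slide 1 and -0.74 on slide 2, the reverse of the msp order. The transcription factor gene spe-44, which drives msp expression in spermatocytes, had a difference of 0.05, and elt-1, another regulator of msp genes, had one of -0.47.

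The smallest unadjusted p in this list was that of spe-38, a sperm membrane protein needed for fertilisation, with levels of -2.53, -2.77 and -1.77 in WTN2 and -2.97, -3.70 and -3.38 in RB1035. Its arrays did not overlap, and the difference was -0.996 ± 0.35 with a limma adjusted p of 0.650. The sperm activation gene snf-10 was at -0.90 ± 0.32 and spe-10, needed for fibrous body-membranous organelle complexes, at -1.66 ± 0.63, of which -0.13 on slide 1 and -2.43 on slide 2. The gene spe-5, which encodes a vacuolar proton pump subunit, was at 1.44 ± 0.57, with -0.31 on slide 1 and 2.31 on slide 2. None of these genes passed the test. Their directions differed over all arrays, and that of spe-5 also differed between the slides.

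Genes that receive the MSP signal or act after it in the gonad were mostly above 0. Of 19 listed genes, 17 were tested (no probe was matched for gsa-1 and efn-1). Of these, 1 was below 0 and 16 above 0, against 49.7% of all features below 0. Their median was 0.19, and 0 were called, against 0.101% of all features. An unadjusted limma p under 0.05 was found for 1 of the 17, against 7.23% of all features. The medians were -0.13 on slide 1 and 0.34 on slide 2. The MSP receptor gene vab-1 was at 0.19 ± 0.34. The oocyte maturation factor gene oma-1 had levels of 0.93, 1.33 and 0.79 in WTN2 and 1.24, 2.18 and 2.22 in RB1035, a difference of 0.86 ± 0.35 with a limma adjusted p of 0.650. Its RB1035 replicate 1 lay inside the wild type range, and the 2 other RB1035 arrays above it. The protein kinase A regulatory subunit gene kin-2 was at 0.47, the CaM kinase II gene unc-43 at 0.42 and the inositol trisphosphate receptor gene itr-1 at 0.32.

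Markers of other cells and of stage also differed between arrays, and their part in the sperm family values was not tested. Of 14 oocyte markers 12 were above 0, with a median of 0.44, of which -0.21 on slide 1 and 0.83 on slide 2. Their summed level was 7.53 to 8.56 in WTN2 and 8.12 to 8.49 in RB1035, and it was lowest on WTN2 replicate 3. All 5 body wall muscle markers were above 0, with a median of 1.42, 0.17 on slide 1 and 2.18 on slide 2, and summed levels of 4.69 to 5.58 and 5.14 to 6.43. Adult stage markers, the yolk protein genes and the adult collagen col-19, were below 0 in 3 of 6, with summed levels of 7.81 to 9.21 in WTN2 and 8.49 to 9.05 in RB1035. Among wild type arrays their median deviation was highest on WTN2 replicate 1 and lowest on WTN2 replicate 3, like those of the msp genes and the oocyte markers. The oocyte median deviation was 0.23 on WTN2 replicate 1 and higher on RB1035 replicates 2 and 3, at 0.40 and 0.35. The adult stage sums on the RB1035 arrays, 8.49, 9.05 and 8.65, exceeded those on WTN2 replicates 2 and 3, 8.37 and 7.81. The msp median deviations on the RB1035 arrays, -0.09, -0.09 and -0.22, lay below the 0.12 on WTN2 replicate 2. They did not lie below the -0.22 on WTN2 replicate 3. Sums and median deviations are different measures, and a link between stage and the msp values was not tested.

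The 4 tested intestine markers had a median of 0.07, with summed levels of 4.32 to 4.44 and 4.24 to 4.71. Male soma markers bear on whether males were present, since males also make sperm. Of 11 such markers 9 did not pass the background filter, among them lov-1 and pkd-2, and the summed level of the others was -5.02 to -3.95 in WTN2 and -4.15 to -3.58 in RB1035. Of the 7 tested sperm markers, 2 were members here and 5 were in the list above. Of the 7, 6 were below 0 and 1 above 0, against 49.7% of all features below 0. Their median was -0.61, with -0.38 on slide 1 and -0.77 on slide 2. Their summed levels were 6.01 to 6.43 in WTN2 and 5.77 to 6.33 in RB1035.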

How the data were processed

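RNA of 3 WTN2 and 3 RB1035 samples was measured on 1-colour Agilent arrays, grouped by the strain in their titles. Per the file headers, the deposited intensity values come from Agilent Feature Extraction 10.7.3.1, and the processed signal intensity is background-subtracted and, except on RB1035 replicate 2, divided by a fitted surface. The deposited series table holds the authors' log2 values, whose scaling no source used here states; its medians were 7.61 or 7.62 on every array, its order of probes followed the median signal, and it served as an alternative.

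Of 45220 spots, 1417 controls were left out. Copies of a probe were averaged, and 133 probes with outlier flags were left out. A probe was kept (31236 were) if 3 or more of the 6 arrays showed it well above background, and a gene was its brightest probe. Probe names of the design build ce4 (WS170) were matched by sequence name or accession to a gene table of assembly WBcel235 (34322 of 43603 probes), used for names, chromosomes and gene order only. Limma 3.58.1 in R 4.3.3 was fitted on the log2 of the processed signal, scaled to the 75th percentile of its array, over 19829 features (15550 named genes, 4279 unnamed probes), two-sided, with Benjamini-Hochberg adjustment and a threshold of 0.05. The fit was tested on simulated data.

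Members and gene lists were chosen with earlier results of these data known. Text names all tested members of families of at most 5 genes, otherwise the 4 smallest p among lower and 2 among higher members, the 3 brightest and the dimmest, and up to 4 per list. Of other genes, nspd-7, nspd-10, ssp-35, msp-31, msp-40, msp-50, msp-152, ssp-19, spe-44, elt-1 and vab-1 were named after their values were seen.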

Additional observations from a re-analysis of the deposited data

How the results depend on the processing

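No member was called by limma under any alternative that was tested (0 of 53, or of 54 with no filter on dim probes). Between 40 and 51 were below 0 in these. Slide 1 alone, with 1 array per strain, was not tested, and there 52 of 53 were below 0. Of 35 named genes with values, 26 kept their direction in each of 17 alternatives, which did not include slide 1 alone. On slide 1 alone spe-5, kin-2 and unc-43, all counted among the 26, turned sign, to -0.31, -0.21 and -0.61. Over all features 20 were called, 11 with normexp background correction and 1 with probes well above background on all 6 arrays. Normexp moved the median of all features to 0.18, and relative to it the msp, msd, nspd, ssp and sss medians were -0.47, -0.59, -0.89, -0.61 and -0.22. The ssp median was -0.52 on slide 1 alone and -0.27 on slide 2 alone, and the msp median was -0.62 on slide 1 alone. Signs turned for msp-51 (-0.12 with normexp, -0.12 in the series table, -0.058 with the position adjustment), msp-74 (-0.051, -0.071 and -0.018 in the same order), msp-52 (0.30 on slide 2), sss-1 (-0.054 for the mean of its probes, -0.044 with the position adjustment), itr-1 (-0.33 for the mean of its probes) and flcn-1 (0.25 on slide 2, 0.066 with the position adjustment). For sss-2 the value was -0.41 with normexp, -0.011 with quantile normalization, -0.37 in the series table, -0.24 on slide 2 and -0.16 with the position adjustment. Leaving out 1 array at a time gave medians of -0.46 to -0.09 for msp, -0.57 to -0.41 for msd, -0.97 to -0.59 for nspd, -0.49 to -0.34 for ssp and -0.15 to 0.24 for sss, and 17 to 20 calls over all features. It turned signs within -0.23 to 0.072 (flcn-1), -0.55 to 0.37 (msd-1), -0.013 to 0.45 (msp-51), -0.33 to 0.21 (msp-52), -0.087 to 0.32 (msp-74), -0.46 to 0.025 (msp-78), -0.045 to 0.45 (sss-1) and -0.44 to 0.24 (sss-2). Same-numbered samples correlated at 0.123, 0.121 and 0.022 in their deviations, so the numbers were not taken to pair them. With the replicate number as a block 30 features were called, 17 of them shared, 0 members were called, and the msp median was again -0.25. The causes were not tested. Normexp on mean signals was not run because mean signals were not used here, nor was a restriction to probes found in 1 gene, which needs their sequences. Position adjustment and slide 1 alone were chosen after seeing the data. With 3 arrays per strain, precision is limited, and whether near-identical msp genes share signal was not tested.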
